A study of Mus musculus with 32 samples.

Results

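Brain-derived neurotrophic factor (Bdnf), neurotrophin 3 (Ntf3) and the neurotrophin receptors were measured in the dendrites and in the soma of single mouse neurons. The 6 genes, out of 44081 in the table of counts per gene, were taken by name: the ligands Bdnf and Ntf3, the receptor tyrosine kinases Ntrk2 (TrkB) and Ntrk3 (TrkC), the p75 receptor Ngfr, and sortilin (Sort1). Their 3′ ends were taken from a second table, in which 14 of 74532 features belong to these genes. Primary hippocampal neurons came from C57BL/6 mice at embryonic day 18 and were kept in culture for 15 days without any further treatment named in the labels. The dendrites of each of 16 neurons were cut from the cell body and aspirated into one tube, and the soma into another, which gave 16 Dendrite and 16 Soma libraries with each pair from the same cell. The aRNA method, which starts from poly-adenylated RNA, was run in 3 rounds for neurons 1 to 4 and in 2 rounds for the other 12, and ERCC spike-in RNA was added at a dilution of 1 in 4000000 to all but neurons 1 and 2. The labels do not say how many animals or cultures the neurons came from. The paper states that several cultures and collection days were used, without saying which neurons share one. The p-values below therefore measure the spread between these neurons, some of which may share a culture.

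Neurotrophins are secreted growth factors made as precursors (proneurotrophins), which are cleaved to mature ligands. Mature BDNF binds TrkB and mature NT-3 binds TrkC, and these kinases signal to the Ras and MAP kinase, PI3 kinase and phospholipase C pathways. The precursors bind p75 together with sortilin, a sorting receptor that also directs proBDNF into the regulated secretory pathway. Bdnf messenger RNA is known to occur with a short or a long 3′UTR, and to be transported into dendrites of hippocampal neurons.

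Dendrite libraries held 646521 to 6954420 reads on 3′UTRs and Soma libraries 925525 to 21169974. Reads carry no molecular identifiers, so the floors given for libraries at 0 reads cover counting error only, while SE and SD measure the spread between neurons. The dendrites of neurons 15 and 16 stood apart, with 1570 and 2485 genes at 10 or more reads where the median dendrite library had 6052.5, and with 35.8% and 32.4% of their reads on mitochondrially encoded genes where the median was 13.5%. Of 6 interneuron markers, Gad1 and Gad2 had reads in all 32 libraries, with soma medians of 6990 and 2583 CPM (counts per 1000000 reads). Slc32a1 had reads in 15 dendrite and 16 soma libraries, Pvalb in 15 and 14, and Sst and Vip in 2 and 3 each. Of 6 pyramidal neuron markers, Map2 had reads in all 32 libraries and Grin1 in all somas. Neurod6 and Neurod2 had reads in 11 and 12 libraries of each compartment. The soma medians of Camk2a and Slc17a7 were 12.3 and 4.24 CPM. The median summed level of the interneuron markers was 10460 CPM in somas and 4505 CPM in dendrites. That of the pyramidal markers was 521 CPM in somas and 2669 CPM in dendrites.

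The 3′ ends of Bdnf come first, since the study set out to compare 3′UTR isoforms between compartments. The sequences are those of GENCODE M21 on GRCm38 (mm10). All 11 coding Bdnf transcripts with an annotated 3′UTR share 1 end, and the 3′UTR of 2855 bases lies at chr2:109724153-109727007 on the plus strand. The poly(A) signals AATAAA and ATTAAA were searched on the transcript strand, and 8 were found in this 3′UTR, 7 of them upstream of its last 500 bases. The 5 AATAAA matches and the 1 match within the last 500 bases are shown, because they mark where a shorter or the full 3′UTR could end. Capitals mark the hexamer, and the number after the name is its first base counted from the start of the 3′UTR.
Bdnf 284, chr2:109724424-109724453: aaaaaaaataatAATAAAttgcatgctgct
Bdnf 318, chr2:109724458-109724487: ttgtgaattgatAATAAActgtccctcttt
Bdnf 729, chr2:109724869-109724898: gactggaaaacaAATAAAaattaaggcaac
Bdnf 749, chr2:109724889-109724918: ttaaggcaactgAATAAAatgctcacactc
Bdnf 1042, chr2:109725182-109725211: taaagaaaaacaAATAAAaataacccaaaa
Bdnf 2770, chr2:109726910-109726939: gaaaaaattggcATTAAAacttaaccacat

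AATAAA stood in the first 2355 bases of 71.7% of the 3070 3′UTRs at least as long as that of Bdnf, and either hexamer in 86.2%, so upstream matches were common. The last hexamer of Bdnf, an ATTAAA, stood 80 bases before the annotated end. ATTAAA occurred in the last 50 bases of 17.3% of 20644 3′UTRs and AATAAA in those of 61.7%. For contrast, the only hexamer in the 3′UTR of Ngfr, which is 1985 bases long and lies at chr11:95568818-95570802 on the minus strand, is an ATTAAA 14 bases before its end.
Ngfr 1966, chr11:95568820-95568849: tacgtgatgaccATTAAAtagcaaaaaaaa

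Most Bdnf reads lay outside its one 3′ end feature. The end table counts reads on the terminal 500 nt of 3′ ends, with ends closer than that joined into 1 feature, and it holds 1 feature for Bdnf. The table gives no coordinates, so this feature was read as the end of the single annotated 3′UTR. In dendrites 121 of 3145 Bdnf 3′UTR reads (3.85%) were on the end feature, and in somas 240 of 1958 (12.3%). Over both compartments the share was 7.07%, where the median of 3766 genes with a single end feature and at least 500 reads was 98.1%. A share as low as that of Bdnf was found in 226 of these genes (6.00%). Ngfr, the other member with a single feature and this many reads, had 97.8% of its reads there.

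The reads on the Bdnf end feature came from few neurons. The soma of neuron 8 held 144 of them, both compartments of neuron 6 held 70 (dendrites) and 66 (soma), the dendrites of neuron 4 held 48 and the soma of neuron 2 held 26. The dendrites of neuron 9, with 1224 Bdnf reads the highest of all, had 0 on the end feature, as did the dendrites of neuron 14 with 395 reads and of neuron 13 with 296. The soma of neuron 14 had 1 of 675. Libraries with similar numbers of Bdnf reads therefore ranged from no reads on the end feature to 44.0% of them, in the soma of neuron 8.

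**Figure D1:**
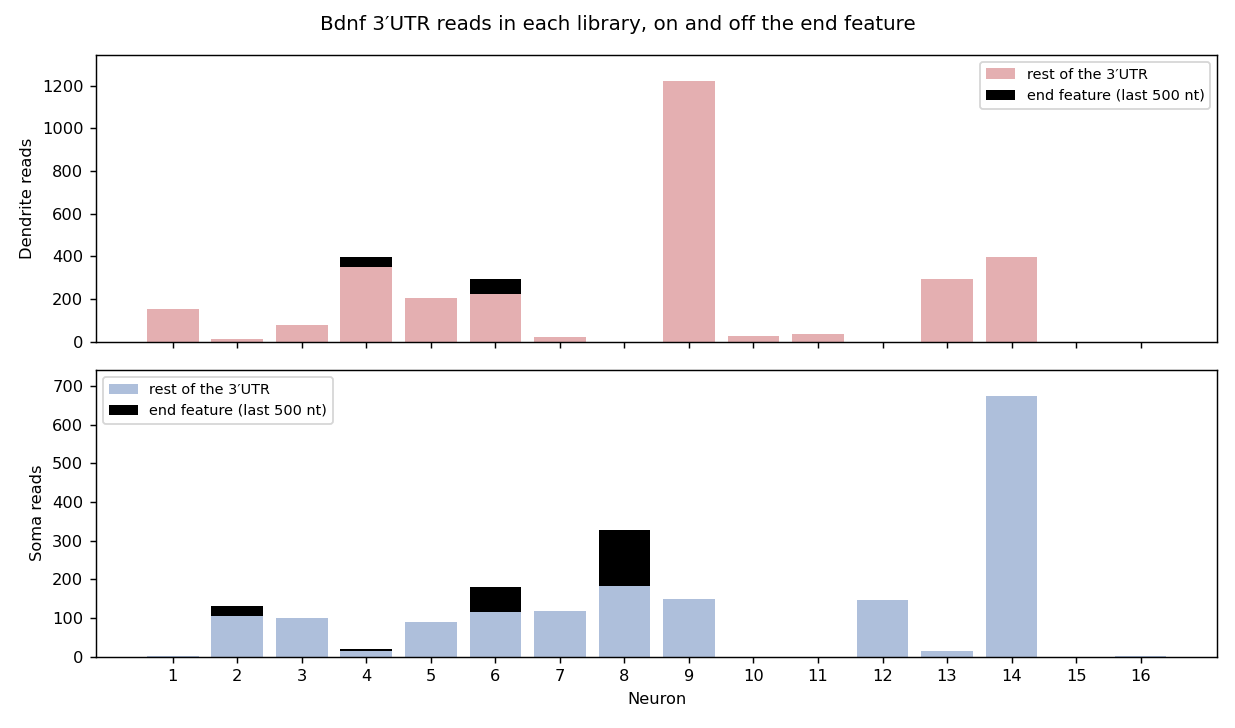
Bdnf 3′UTR reads (y axis, read counts, with a separate scale for dendrites above and somas below) in each of the 16 neurons (x axis), with reads on the end feature in black and all other 3′UTR reads in colour. Black segments are visible in neurons 2, 4, 6 and 8 and absent from the tallest bars, the dendrites of neuron 9 (1224 reads) and the soma of neuron 14 (675 reads).

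In the 9 neurons with at least 10 Bdnf reads in both compartments, the share on the end feature was 4.88% ± 8.28 (SD, n = 9) for the dendrites and 8.03% ± 13.2 (SD, n = 9) for the somas. The difference of -3.14 percentage points was within the spread between neurons (exact signed-rank test, two-sided, p = 0.188, adjusted p = 0.987 over 5967 genes). The share was lower in the dendrites of 4 neurons, higher in those of 1, and 0 in both compartments of the others. This comparison was added after the data were seen, and it called 0 genes, with 10.4% of genes at an unadjusted p under 0.1. A difference between the compartments was not detectable at these read numbers.

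Bdnf was read at a higher level in the dendrites than in the soma of most neurons, but the difference over all neurons did not pass the test. Its dendrite level ranged from 0 to 309 CPM, on TMM-scaled library sizes, with a median of 43.3. In somas it ranged from 0 to 129 CPM, with a median of 12.3. The groups overlapped, with the highest values in dendrites, and within pairs the dendrites were higher in 12 neurons (in neuron 16 on 1 read in each compartment), the soma in 3 (neurons 2, 8 and 12), and neuron 15 had no Bdnf reads in either.

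The direction of the pairs differed widely. In neuron 13 the dendrites held 239 CPM (296 reads) and the soma 1.22 CPM (16 reads), and neurons 1 and 4 were like it, with 203 against 1.58 CPM and 309 against 2.63 CPM. In neurons 10 and 11 the dendrites had 25 and 36 reads and the somas 0, which allows up to 3 reads or 0.226 to 0.325 CPM in somas without Bdnf reads. Neuron 12 was the reverse, with 1 read in dendrites and 146 in the soma, as was neuron 8, with 1 and 327. Neuron 14 had high levels in both, 212 CPM in dendrites and 114 CPM in the soma. Over 14 neurons with at least 10 Bdnf reads in all, the dendrites held from 0.745% to 100% of the summed CPM of the pair, with over 90% in 6 neurons and under 10% in 2.

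**Figure D2:**
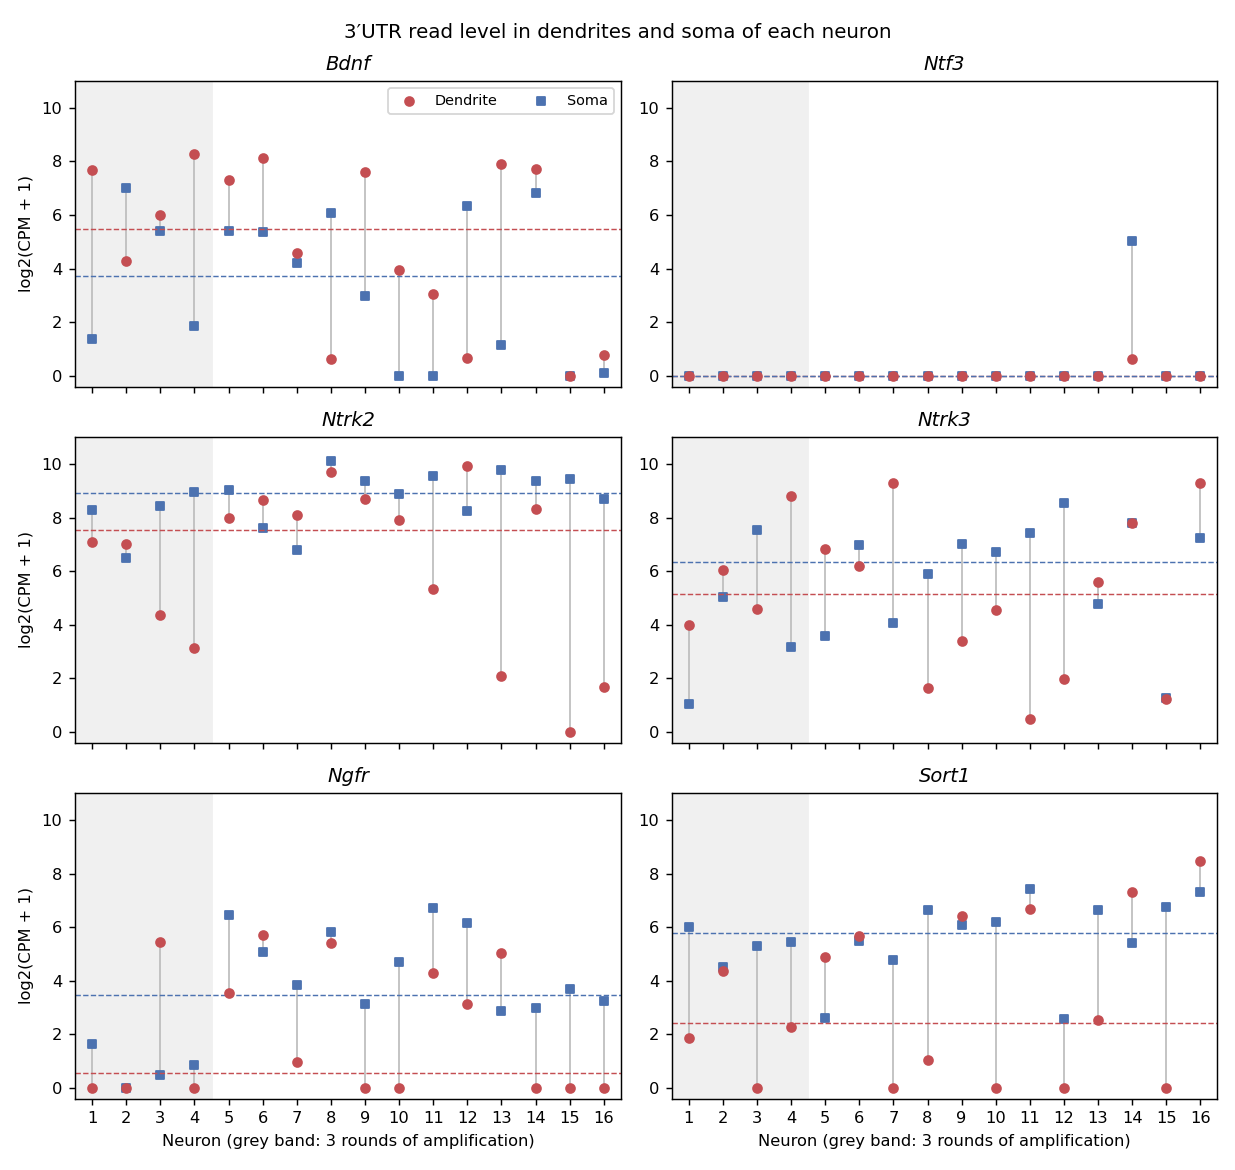
Level of each gene as log2(CPM + 1) on the y axis in the dendrites (red circles) and soma (blue squares) of the 16 neurons on the x axis, with a grey line joining each pair, dashed lines at the median of each compartment and a grey band over the 4 neurons amplified in 3 rounds. Bdnf is higher in the dendrites of 12 neurons, Ntrk2 and Ngfr in the soma of 12, Sort1 in the soma of 11 and Ntrk3 in each compartment of 8.

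With neuron as a block in edgeR's quasi-likelihood test, the log2 difference of Bdnf (dendrites over soma) was 2.69 ± 1.37 (SE, n = 16 pairs, unadjusted p = 0.0551, adjusted p = 0.173). This is a 6.47-fold higher fitted level in dendrites that did not pass the adjusted threshold of 0.05. The median of all 10880 genes tested was -1.49 on the same scale, so the Bdnf difference stood 4.19 above it, and 1.97% of genes had a larger one. In edgeR 0 of the 5 members tested were called in either direction, beside 0.827% of all genes with a call towards the dendrites and 5.71% with a call towards the soma. At an unadjusted p under 0.05, 3 members (Ngfr, Ntrk2 and Sort1) were lower in dendrites, beside 26.7% of genes, and 0 were higher, beside 3.55%. DESeq2 called Bdnf higher in dendrites (log2 2.69 ± 0.83, adjusted p = 0.00417) and those 3 receptors higher in somas, but it called 4.26% and 46.2% of all genes in these directions. In the exact sign-flip permutation test on log2(CPM + 1) the mean difference of Bdnf was 1.53 ± 3.81 (SD, n = 16 pairs, two-sided, p = 0.130, adjusted p = 0.232), and 3.24% of genes were called as higher in dendrites.

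Reads per ERCC spike-in read compare amounts of RNA per tube, whereas CPM is a share of a library, in which less of one RNA and more of the rest cannot be told apart. Over the 14 neurons with spike-in, the exon reads of Bdnf per 1000 ERCC reads ranged from 0 to 70.6 in dendrites, with a median of 4.86, and from 0 to 32.6 in somas, with a median of 6.09. They were higher in the dendrites of 7 neurons and in the soma of 6. Scaled to ERCC, the log2 difference was 0.66 ± 1.62 (SE, adjusted p = 0.703 in edgeR), while the median gene was at -4.19 with 68.2% of genes called as higher in the soma and 0.035% as higher in the dendrites. On this scale the Bdnf values of the compartments were not separated beyond the spread between neurons, and those of most genes were. The ERCC reads behind these ratios ranged from 3083 to 283471 in dendrites and from 4347 to 95838 in somas.

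Ntf3, the ligand of TrkC, had 3′UTR reads in 1 neuron only. The soma of neuron 14 held 190 reads (32.0 CPM) and its dendrites 1 read. All other libraries had 0 reads on its 3′UTR of 314 bases, which allows up to 3 reads in each, or 0.138 to 2.96 CPM in somas and 0.478 to 4.01 CPM in dendrites. The exon table added 8 reads in the dendrites of neuron 11 and 1 in those of neuron 5. Ntf3 did not reach 1 read in 16 libraries and was not tested, so the edgeR counts above leave out 1 of the 6 members.

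Ntrk2, the TrkB receptor, was found in every soma and in 15 of 16 dendrite samples. Somas ranged from 87.8 to 1111 CPM with a median of 482, and dendrites from 0 to 959 CPM with a median of 187. The soma was higher in 12 neurons, and the dendrites in neurons 2, 6, 7 and 12. All somas lay well above 0, whereas the dendrites split widely: those of neurons 13, 15 and 16 held 4, 0 and 3 reads, and those of neurons 8 and 12 held 1529 and 1604.

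The log2 difference of Ntrk2 was -1.91 ± 0.85 (SE, n = 16 pairs, unadjusted p = 0.0301, adjusted p = 0.129 in edgeR), near the median gene at -1.49. The exact sign-flip permutation test gave a mean log2 difference of -2.44 ± 3.48 (SD, n = 16, p = 0.0129, adjusted p = 0.0531). Without neurons 15 and 16 the edgeR value was -1.32 ± 0.64 (adjusted p = 0.216). Per ERCC read the soma was higher in 13 of 14 neurons, with a median of 55.7 exon reads per 1000 ERCC reads against 0.904 in dendrites (log2 difference -6.45 ± 1.68 SE, adjusted p = 0.00154 in edgeR), where 68.2% of genes were called in that direction. Pooled over libraries, exon counts of Ntrk2 were low for its 3′UTR counts, at 0.356 exon reads per 3′UTR read in somas and 0.187 in dendrites. The other receptors had pooled ratios of 0.903 to 1.08. The ratio of Ntrk2 differed between libraries: the dendrites of neuron 12 had 1 exon read for 1604 3′UTR reads and its soma 84 for 558, and the dendrites of neuron 10 had 0 for 408. That of Ntrk3 also differed between libraries. Its exon reads numbered 0 for 28 3′UTR reads in the dendrites of neuron 3, 3 for 59 in neuron 9 and 7 for 39 in neuron 10. In the dendrites of neuron 8 they numbered 83 for 4. The dendritic Ntrk2 level given for neuron 12 is that of the 3′UTR count, while the ERCC values use exon reads and count neuron 12 as higher in the soma. Fewer exon reads per 3′UTR read in dendrites lower the dendritic ERCC values of Ntrk2 relative to the somatic ones. How much of the log2 difference of -6.45 comes from this was not tested.

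Astrocytes also express Ntrk2, mainly as its truncated form, and RNA of other cells could enter a tube. The 6 astrocyte markers all had reads in both compartments, and their summed level ranged from 0 to 846 CPM in dendrites (median 159) and from 0 to 538 CPM in somas (median 57.5). Aldoc had reads in 12 dendrite and 13 soma libraries (medians 47.2 and 25.0 CPM), Slc1a3 in 11 and 13 (11.8 and 2.32 CPM) and Gfap in 6 and 4 (medians of 0). In the soma of neuron 13 the astrocyte sum was 0.228 CPM and Ntrk2 881 CPM, and in the soma of neuron 11 they were 538 and 756 CPM. In the dendrites of neuron 8 they were 846 and 819 CPM and in those of neuron 9 4.62 and 409 CPM. The part of astrocyte RNA in dendritic Ntrk2 was not tested. The medians of the summed markers were 7.30 CPM in dendrites and 0.260 CPM in somas for microglia, 31.7 and 23.1 CPM for oligodendrocytes, and 8.27 and 0.621 CPM for endothelial cells, and their part in the differences of the members was not tested either.

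Ntrk2 has 2 end features for 6 annotated 3′ ends of 7 coding transcripts, and which feature belongs to which transcript is not given. The feature named utr1, read as the farthest downstream, took 90.9% of the reads on end features in dendrites (5666 reads) and 99.3% in somas (42307 reads). The feature utr2 had 568 reads in 4 dendrite samples and 295 in 7 somas. The distal share in the 11 neurons with enough reads was 96.1% ± 6.87 (SD, n = 11) for the dendrites and 98.8% ± 2.76 (SD, n = 11) for the somas, within the spread between neurons (exact signed-rank test, two-sided, p = 0.742, adjusted p = 1 over 3519 genes). This test called 0 of those genes, with 8.41% at an unadjusted p under 0.1. At the level of single ends, utr1 had a log2 difference of -2.14 ± 1.14 (SE, adjusted p = 0.154 in edgeR), at the median of all ends (-2.14).

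Ntrk3, the TrkC receptor, had 3′UTR reads in all 32 libraries, exon reads in 28 of them, and no common direction. Dendrites ranged from 0.403 to 629 CPM with a median of 34.9, and somas from 1.06 to 376 CPM with a median of 80.8. The groups overlapped fully, and the dendrites were higher in 8 neurons and the soma in 8. The gaps within pairs were large in both directions, with 577 dendrite and 58 soma reads in neuron 4, 655 and 106 in neuron 7, and 2 and 1865 in neuron 11.

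The log2 difference of Ntrk3 was -0.26 ± 1.15 (SE, n = 16 pairs, adjusted p = 0.888 in edgeR), and its sign turned under other settings. Per ERCC read the soma was higher in 11 of 14 neurons (log2 difference -3.71 ± 1.61 SE, adjusted p = 0.0345 in edgeR), above the median gene at -4.19. In neurons of 3 rounds the log2 difference was 2.14 ± 1.61 (SE, n = 4 pairs, adjusted p = 0.884 in edgeR) and in those of 2 rounds -1.02 ± 1.38 (SE, n = 12 pairs, adjusted p = 0.628), and the interaction of 3.15 ± 2.64 was not significant (unadjusted p = 0.239, adjusted p = 1). For Bdnf, Ntrk2, Ngfr and Sort1 the interaction also had an adjusted p of 1 in edgeR, and it called 0 of 10880 genes, with 288 (2.65%) at an unadjusted p under 0.05.

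Of the 6 end features of Ntrk3, utr2 held most reads, 84.3% of the end reads in dendrites and 92.3% in somas, and utr6 held none. The longest annotated 3′UTR of Ntrk3 has 16600 bases and 16 hexamers, 14 of them upstream of the last 500 bases. Reads on any end feature made up 51.2% ± 40.3 (SD, n = 11) of the dendritic Ntrk3 3′UTR reads and 84.4% ± 22.3 (SD, n = 11) of the somatic ones. The soma share was higher in 8 of 11 neurons, a difference of -33.2 percentage points that did not pass (exact signed-rank test, two-sided, p = 0.0537, adjusted p = 0.805). In neurons 3, 9 and 10 the dendrites had 0%, 5.08% and 2.56% of their reads on end features and the somas 100%, 73.6% and 87.4%, and neuron 5 was the reverse, with 77.8% and 20.8%. In the same order, the dendrites of neurons 3, 9 and 10 had 0, 3 and 7 exon reads for 28, 59 and 39 3′UTR reads. The soma of neuron 5 had 4 for 24. Pooled over all reads the shares were 84.4% in dendrites and 85.2% in somas, and without neuron 5 the mean difference was -42.2 points. Of the top 2 ends, utr2 was read as more distal than utr4, which could not be checked without coordinates. The distal share so read was 95.2% ± 6.89 (SD, n = 6) for the dendrites and 83.8% ± 39.7 (SD, n = 6) for the somas (exact signed-rank test, two-sided, p = 0.875, adjusted p = 1). The soma of neuron 4, at 2.78%, set the soma spread.

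Ngfr, the p75 receptor, was read in 15 somas and 8 dendrite samples. Somas ranged from 0 to 104 CPM with a median of 10.1, and dendrites from 0 to 51.3 CPM with a median of 0.478. The soma was higher in 12 neurons and the dendrites in neurons 3, 6 and 13. The 8 dendrite samples at 0 reads allow up to 0.478 to 4.01 CPM, and the soma of neuron 11, with 1153 reads, was the highest.

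The log2 difference of Ngfr was -3.34 ± 1.43 (SE, n = 16 pairs, unadjusted p = 0.0231, adjusted p = 0.114 in edgeR), or -1.85 relative to the median gene. Its single end feature gave -3.51 ± 1.45 (SE, adjusted p = 0.0755 in edgeR), and 0 of the 4 member ends tested were called, beside 16.9% of 10652 ends called higher in somas and 0.723% called higher in dendrites. At an unadjusted p under 0.05, 2 of these ends were lower in dendrites (Ngfr and Sort1), beside 37.3% of all ends, and 0 were higher, beside 1.98%. Per ERCC read Ngfr was higher in the soma of 12 of 14 neurons (log2 difference -5.33 ± 1.99 SE, adjusted p = 0.0161 in edgeR).

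Sort1, the sorting receptor for proneurotrophins, was read in all 16 somas and in 11 dendrite samples. Somas ranged from 4.91 to 171 CPM with a median of 53.4, and dendrites from 0 to 349 CPM with a median of 4.36. The soma was higher in 11 neurons, and the dendrites in neurons 5, 6, 9, 14 and 16. The dendrites of neuron 16, at 349 CPM, held 43.4% of the summed dendrite level, although that library had few detected genes.

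The log2 difference of Sort1 was -3.04 ± 1.37 (SE, n = 16 pairs, unadjusted p = 0.0311, adjusted p = 0.131 in edgeR), or -1.55 relative to the median gene. The exact sign-flip permutation test called it, with a mean log2 difference of -2.35 ± 3.04 (SD, n = 16, two-sided, adjusted p = 0.0436), and it called 19.7% of all genes in that direction. Per ERCC read the soma was higher in 12 of 14 neurons (log2 difference -5.09 ± 1.75 SE, adjusted p = 0.00986 in edgeR). Nearly all Sort1 reads were on the feature utr1, 98.8% of the 3′UTR reads in dendrites and 98.1% in somas. The distal share, with utr1 read as downstream of utr2, was 100% in dendrites and 97.4% ± 6.87 (SD, n = 7) in somas (exact signed-rank test, two-sided, p = 1).

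**Figure D3:**
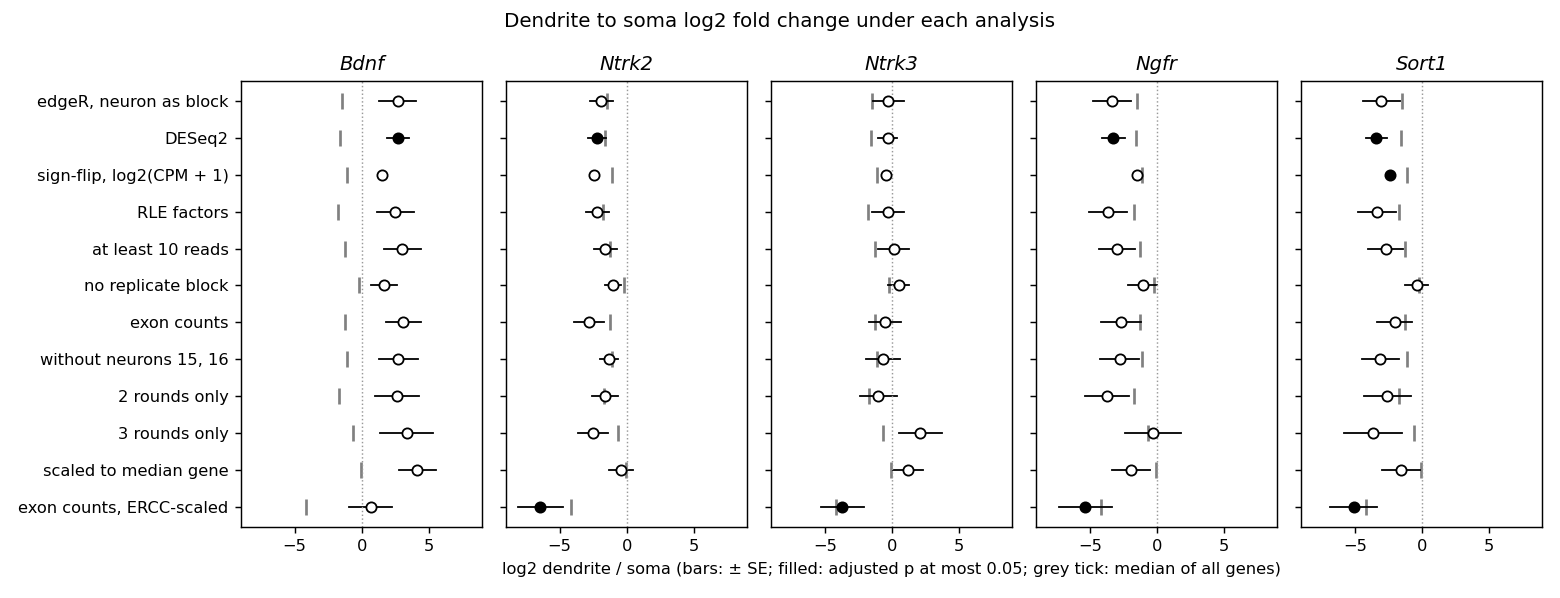
Log2 difference between dendrites and soma (x axis) of the 5 members tested under 12 analyses (y axis), as points with bars of ± SE (the sign-flip test has none), filled where the adjusted p was at most 0.05, with a grey tick at the median of all genes. Bdnf is above 0 and above the median gene in all 12, Ntrk3 lies on both sides of 0, and with ERCC scaling Ntrk2, Ntrk3, Ngfr and Sort1 are filled and the median gene is at -4.19.

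**Figure D4:**
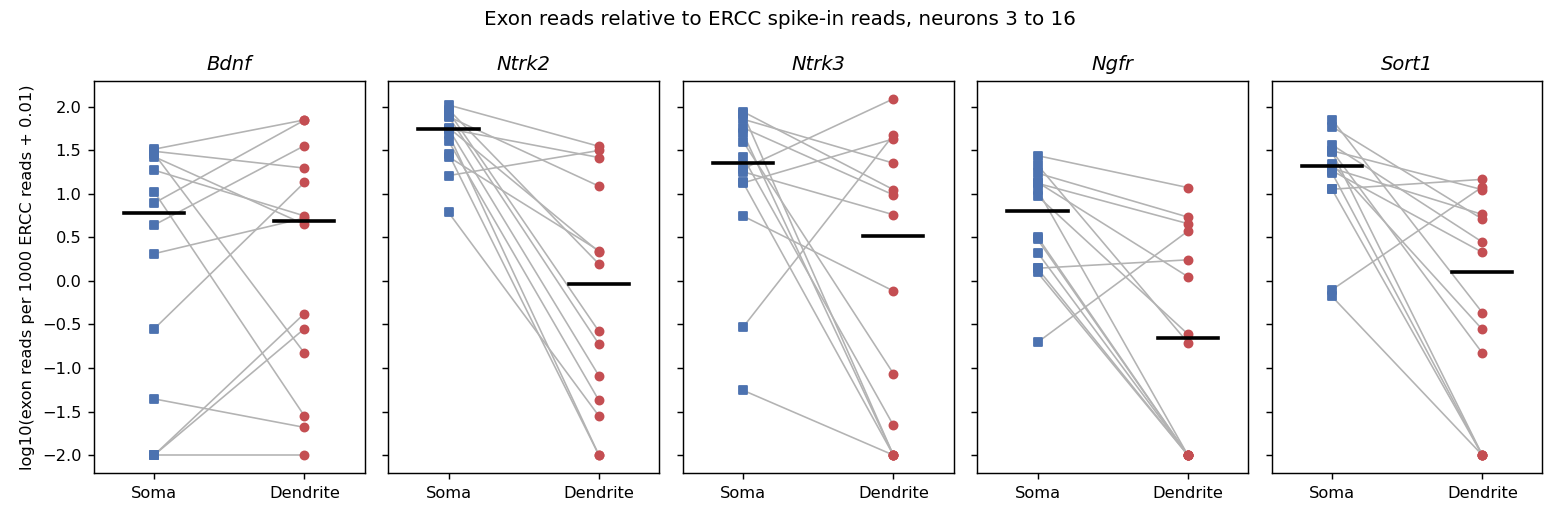
Exon reads per 1000 ERCC reads, as log10(value + 0.01) on the y axis, in the soma (blue squares) and dendrites (red circles) of the 14 neurons with spike-in, joined by neuron, with black bars at the medians. The medians of Bdnf are close (6.09 in somas, 4.86 in dendrites), and that of Ntrk2 is 55.7 in somas and 0.904 in dendrites. Ntrk2 had fewer exon reads per 3′UTR read in dendrites (0.187) than in somas (0.356).

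Over the 16 dendrite libraries, Spearman's rho with Bdnf on log2(CPM + 1) was 0.49 for Ntrk3, 0.32 for Sort1, 0.05 for Ngfr and 0.01 for Ntrk2. Over the 16 somas it was 0.29 for Ntrk3, -0.78 for Sort1, -0.13 for Ngfr and -0.34 for Ntrk2. The genes most like Bdnf over dendrites were AK021280 (rho 0.89), Fem1c (0.84), the G protein signalling regulator Rgs4 (0.84), the ephrin ligand Efnb2 (0.83) and the adaptor Sdcbp (0.83), which were picked for these values. Over somas they had rho from -0.22 to 0.07. These coefficients are descriptions over libraries that differ in depth and in the number of genes detected.

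The other genes of the pathway, 88 in 5 lists, were mostly measurable, and 72 passed the filter. With edgeR, calls towards the dendrites numbered 0 and those towards the soma 1, beside 0.827% and 5.71% of all genes. At an unadjusted p under 0.05 the numbers were 0 and 13, beside 3.55% and 26.7% of all genes. Their median log2 difference was -1.05, where that of all genes was -1.49, and 45 of 72 lay above the median gene.

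Among the other ligands and receptors, 6 of 9 were tested and 0 were called, with a median of -1.37. The sortilin relative Sorcs2 was at -4.08 ± 1.59 (SE, adjusted p = 0.0891 in edgeR), with reads in 15 somas and 8 dendrite samples. Ntf5, the gene of NT-4, had reads in 7 dendrite samples and 4 somas and was not tested.

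Among Trk adaptors and signalling genes, 32 of 37 were tested, 0 were called and the median was -0.77. The neuronal adaptor Shc3 had reads in every library and was at 1.20 ± 0.66 (SE, adjusted p = 0.207), and the Ras exchange factor Sos1 was at -3.66 ± 1.26 (SE, adjusted p = 0.0618), both in edgeR. Among 11 tested genes of proneurotrophin processing and release (of 14), 0 were called and the median was -0.52, with the protease Furin at -0.38 ± 1.32 and the sorting enzyme Cpe at -0.30 ± 0.51 (SE). Among 8 tested regulators of Bdnf transcription (of 12), 0 were called and the median was -1.23, with Mef2c at -1.39 ± 0.69 (SE).

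Among p75 adaptors and signalling genes, 15 of 16 were tested and the median was -1.68. The 1 gene called was Zfp110, a zinc finger protein that binds p75, at -5.75 ± 1.55 (SE, n = 16 pairs, adjusted p = 0.0234 in edgeR). It had reads in 12 somas, up to 75.7 CPM, and in 4 dendrite samples, up to 5.41 CPM, and the soma was higher in 11 neurons and the dendrites in 1. Zfp110 has a close paralogue, Zfp369, which could affect its counts of uniquely mapped reads, and this was not tested. The call of Zfp110 was lost with no filter (log2 -5.81, adjusted p = 0.132) and on exon counts (-5.40, adjusted p = 0.0572). The same held with 2 rounds only (-5.42, adjusted p = 0.0933) and with median scaling (-4.53, adjusted p = 0.0511), all in edgeR. It was also lost without neurons 15 and 16 (log2 -5.58, adjusted p = 0.0600) and without neuron 16 alone (-5.31, adjusted p = 0.0643), and without neuron 5, 8, 9 or 14 it fell below the filter and was not tested. The p75 binding proteins Maged1 and Ngfrap1 had reads in every library, at -0.98 ± 0.65 and -0.42 ± 0.45 (SE).

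**Figure D5:**
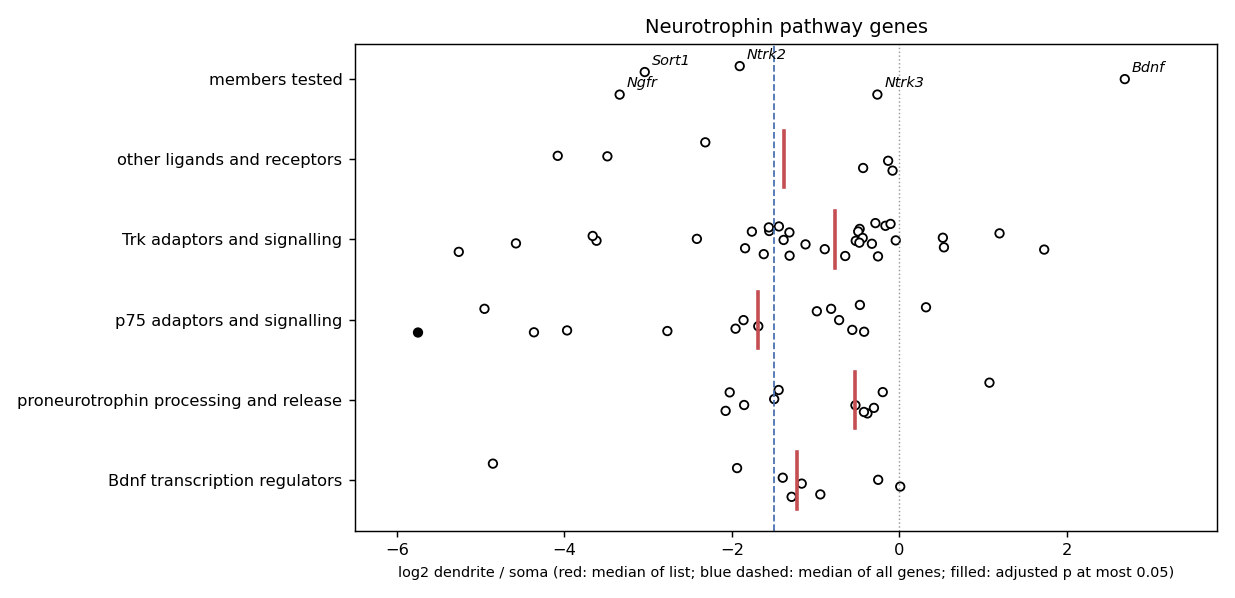
Log2 difference between dendrites and soma (x axis, edgeR with neuron as a block) of the 5 members tested and of the 72 tested genes of the 5 lists (y axis), 1 point per gene, filled where the adjusted p was at most 0.05, with red bars at the medians of the lists and a blue dashed line at the median of all genes (-1.49). Zfp110, at -5.75, is the only filled point, and Bdnf, at 2.69, lies to the right of all others.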

How the data were processed

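The authors removed adapters and poly-A stretches, mapped reads to mm10 with STAR (2.4.0 in the submitters' processing notes) and counted uniquely mapped reads by strand with VERSE. All deposited values used were raw read counts, not normalized: counts on the union of 3′UTRs of each gene, counts on the terminal 500 nt of 3′ ends (closer ends joined into 1 feature), and counts on exons and 92 ERCC spike-ins of each library. The exon annotation is not given in the sources used here.

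Genes and ends with at least 1 read in at least 16 libraries were compared in edgeR 4.0.16 (R 4.3.3; TMM, quasi-likelihood test, neuron as block, Benjamini-Hochberg over all features, threshold 0.05). DESeq2 1.42.0 was an alternative. Shares of reads were compared with exact signed-rank tests in genes with at least 10 reads in both compartments of at least 5 neurons, and other values with Python 3.11.15, NumPy 2.4.6, pandas 2.3.3 and SciPy 1.17.1.

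The pairing comes from the cell number in the labels. Over 10880 genes, deviations from the compartment mean correlated with a median r of 0.06 (-0.01 to 0.24) between compartments of the same neuron. Between different neurons the median r was -0.01 (-0.18 to 0.26). Of the 16 somas, 7 correlated best with their own dendrites, and 9 of the dendrite libraries did so with their own soma. Among the libraries, 0 pairs were identical.

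Named genes were all members and their ends, called genes of each pathway list (at most 5 in each direction by p) and the 5 genes most like Bdnf over dendrites. Further pathway genes were named as examples after their values were seen, and a few genes counted in the lists are not reported here by name. Members and lists were chosen with earlier results of these data known. Alternatives covered the test, scaling, filter, block, exon counts, amplification rounds and leaving out neurons. Median scaling, leaving out neurons 15 and 16, leaving out neurons for the pathway counts, and all tests of the share on end features were chosen after seeing the data.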

Additional observations from a re-analysis of the deposited data

Results flagged for a closer look

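In the dendrites of the 4 neurons amplified in 3 rounds, Ngfr was at 42.5 CPM (52 reads) in neuron 3 and had 0 reads in neurons 1, 2 and 4, so that the gap to the nearest value made up the whole range. The soma of neuron 3 held 1 Ngfr read. Of 12 groups of 4 libraries checked in this way, 1 was flagged. The usual chance rate of about 1 in 20 does not hold here, since a group with reads in only 1 library is always flagged. Ntf3, with 0 reads in all 4 libraries of either compartment, could not be flagged.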

How the results depend on the processing

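DESeq2 gave adjusted p-values under 0.05 to Bdnf (2.69), Ntrk2 (-2.19), Ngfr (-3.24) and Sort1 (-3.40), with 1 member towards the dendrites and 3 towards the soma (beside 4.26% and 46.2% of all genes). It did so also for the ends of Ngfr (-3.46), Ntrk2 (-2.60) and Sort1 (-3.75), 3 ends (60.2% of all ends were called in that direction), and for 30 of 72 pathway genes higher in somas, against 1. Exon counts scaled by ERCC called 4 members, Ntrk2 (-6.45), Ntrk3 (-3.71), Ngfr (-5.33) and Sort1 (-5.09), and 68.2% of all genes, towards the soma. The Ntrk2 value carries the lower ratio of exon to 3′UTR reads in dendrites. The sign-flip test called 1, Sort1 (-2.35), with 19.7% of all genes, and RLE factors called 1 end, Ngfr (-3.89), with 29.1% of all ends. Ntrk3 reversed from -0.26 to 0.13 with at least 10 reads in 16 libraries, 0.51 with no replicate block, 2.14 with 3 rounds only and 1.23 when scaled to the median gene, and its end utr2 from -1.84 to 0.0810 with no replicate block and 0.25 when scaled to the median end. Median scaling moved the median of all genes from -1.49 to -0.05 and that of all ends from -2.14 to -0.11. The 2 reversals under median scaling follow from this shift. With 2 rounds only the distal share difference of Ntrk3 was -5.39 points, against 11.4. Pathway genes called higher in somas numbered 0 with at least 10 reads, when scaled to the median gene and without neurons 15 and 16. Of all genes, 2.55%, 0.846% and 1.68% were called in that direction under these settings. Median scaling called 1 pathway gene higher in dendrites, Shc3 (2.69, named after its value was seen), beside 5.04% of all genes.

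Without the replicate block for neuron, Bdnf was at 1.67 (adjusted p = 0.421), Ntrk2 at -0.996, Ngfr at -1.07 and Sort1 at -0.40 (adjusted p = 0.871). No member was called with or without the block, and the median of all genes moved from -1.49 to -0.22. Median scaling left Bdnf at 4.15 (adjusted p = 0.0570), Ntrk2 at -0.41, Ngfr at -1.93 and Sort1 at -1.57, and with 3 rounds only Ngfr was at -0.28. The cause of these changes was not tested.

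Leaving out each neuron in turn gave 2.25 to 3.45 for Bdnf, -2.20 to -1.35 for Ntrk2, -0.65 to 0.44 for Ntrk3 (with 5 reversals), -3.78 to -2.79 for Ngfr and -3.49 to -2.32 for Sort1. The ends of Ngfr ranged from -3.93 to -2.88, of Ntrk2 from -2.49 to -1.65, of Ntrk3 from -2.44 to -1.10 and of Sort1 from -3.78 to -2.70. In these runs 0 members and 0 ends were called. Of all genes, 1.16% to 8.93% were called higher in somas and 0.509% to 1.07% higher in dendrites. Of all ends, 6.41% to 23.7% were called higher in somas and 0.475% to 0.994% higher in dendrites. The distal share difference was -3.98 to -1.27 points for Ntrk2, -5.39 to 16.9 for Ntrk3 (it turned without neuron 4) and 0 to 3.03 for Sort1. The share on end features differed by -3.66 to -1.95 points for Bdnf, -3.71 to 6.54 for Ntrk2 (from 0.624, with 5 reversals), -42.2 to -26.5 for Ntrk3, 0.278 to 0.825 for Ngfr and -2.17 to -0.598 for Sort1. Pathway genes called higher in somas numbered 0 to 5: 0 without neurons 8, 14 or 16, and 4, 5 and 2 without neurons 2, 5 and 6. Of all genes, 8.71%, 8.93% and 4.66% were called in that direction without neurons 2, 5 and 6 and 4.40%, 3.76% and 1.16% without neurons 8, 14 and 16, against 5.71%. Read numbers limit the end results, since 5 or fewer libraries of a compartment had reads on the Bdnf end feature. With at least 20 reads too few neurons remained to test the share of Ngfr, and Zfp110 did not pass the filter of at least 10 reads, with 3 rounds only or with exon counts scaled by ERCC.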
